A study of Homo sapiens with 9 samples.

Results

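The response to nanosecond electrical pulses (nsEP) was measured in Jurkat cells by setting the 3 arrays of pulsed cells against the 3 arrays of sham exposed cells. These 6 samples, of 9 in the series, were taken by their titles. In them 19775 genes were read from the probe sets, groups of short probes each meant to read 1 transcript. Some probe sets are listed with several genes. Jurkat is a human T lymphocyte line that grew out of a leukaemia and is kept as 1 clone, so the samples share 1 genotype. Pulsed cells received 100 pulses of 10 ns at 150 kV/cm in an electroporation cuvette, sham cells were placed in the same kind of cuvette without power, and RNA was taken 4 h after exposure in both groups. A heat shocked group of 3 arrays, handled in the same cuvettes, entered the fit to steady the estimate of spread and is shown for comparison. The labels call the samples biological replicates 1 to 3 and do not say whether they came from separate cultures. If they came from 1 culture, the p-values measure only the spread between these samples and not that between cultures. RNA came from the whole culture, with no sort of living from dead cells stated. In the paper's MTT assay, pulsed Jurkat cells had far lower viability than sham cells at 4 h, the hour of RNA harvest. A change in every cell and a larger change in some of the cells therefore cannot be told apart. Nor can fewer cells be told from less RNA per cell.

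Cells meet a sudden stress with immediate early genes, which need no new protein to be switched on. Calcium entry and the MAP kinases ERK, JNK and p38 act on factors already bound at their promoters, such as SRF at CArG boxes and CREB at CRE sites. The first products include FOS and JUN proteins, which pair into the transcription factor AP-1, and the EGR zinc finger factors. A second layer of genes then ends the signal, among them the DUSP phosphatases, which take the phosphates off MAP kinases, and the RGS proteins, which turn off G proteins. In T cells the same calcium and ERK route follows the T cell receptor and raises CD69 on the surface. A separate programme, the integrated stress response, slows translation through eIF2 and turns on target genes of the transcription factor ATF4.

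The arrays had the marks of the labelled line. Of 20 T lineage markers measured, 19 lay in the brightest quartile of probe sets in sham, and their summed signal ran from 115000 to 123000 in sham and from 113000 to 144000 after pulses. Of 22 myeloid markers 1 was in the brightest quartile in sham, as were 2 of 11 B cell markers, and no marker of the 3 lists was called between the groups. The array of nsEP replicate 3 stood apart, at 172.6 on the second principal component where the other 8 lay between -62.6 and 30.6, and limma gave it a weight of 0.510. Actin transcripts were the most biased to the 3′ end on nsEP replicate 3 (1.24 on the log2 scale, 3′ minus 5′) and sham replicate 1 (1.26), against 0.31 to 0.79 on the others. The part of these differences in the results was not tested, and counts without each array are given below.

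After pulses 28 probe sets were higher and 4 lower at an adjusted p under 0.05, which is 0.0513% and 0.00732% of those tested. They named 22 genes that were higher and 2 that were lower at any of their probe sets. Read at the brightest probe set, which stands for the gene here, 10 genes were higher and 2 lower, or 0.0506% and 0.0101% of 19775. The median log2 ratio of all genes was -0.02, and 47.6% of genes had a ratio above 0. At an unadjusted p under 0.05 the share was 5.4% of genes, against which the counts of list members at that limit can be read. In 4 of the called probe sets, those of FOS, FOSB, DUSP16 and EGR4, the sham mean lay under the first quartile of mean signals, 4.48, so that their ratios rest on a dim signal. Probe sets whose names end in x_at, which share probes with other sequences, made up 7.7% of all, 5 of the 28 called higher (of JUN, RNA45SN5, SRSF11, GABPB1 and EDRF1) and 1 of the 4 called lower (of ST3GAL2). The calls were sensitive to single arrays: 14 of the 32 stayed called whichever of the 6 arrays was left out, 4 stayed in 3 to 5 of these fits and 14 in fewer. The count fell from 32 to 15 without nsEP replicate 2, to 18 without sham replicate 1 and to 18 without sham replicate 3. Without nsEP replicate 3, the array that stood apart, it was 30, with 20 of the 32 still called.

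**Figure D1:**
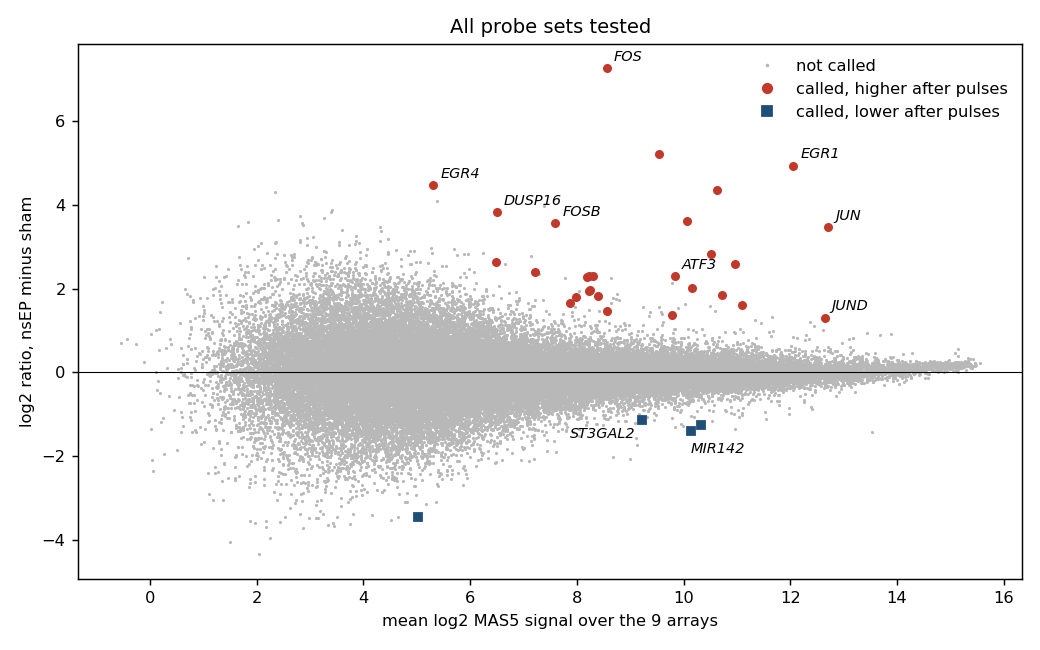
Log2 ratio of nsEP to sham against the mean log2 signal over the 9 arrays, 1 point per probe set tested; large points passed an adjusted p of 0.05. FOS had the largest called ratio at 7.27, and the scatter of the points not called narrowed from dim to bright probe sets, with a median within-group SD of 1.09 in the dimmest quartile and 0.24 in the brightest.

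FOS, the AP-1 subunit that is nearly silent in resting cells, had log2 signals of 2.61, 3.84 and 2.77 in sham and 10.10, 11.29 and 9.64 after pulses. The groups lay far apart, and the 3 pulsed arrays all lay above the upper quartile of mean signals, 8.65. The log2 ratio of 3 arrays against 3 was 7.27 (adjusted p = 3.25e-06 by limma), with a standard error of 0.40. Values after ± below are standard errors of log2 ratios. Each comes from the limma fit to all 9 arrays, so the heat shocked arrays enter its estimate of spread. For FOS the SD was 0.67 in sham, 0.85 after pulses and 0.23 after heat shock. The FOS ratio was 5.02 with 32 signal units added to every value. FOSB, a second FOS subunit, went from 4.10, 4.05 and 4.48 in sham to 6.93, 8.22 and 8.22, a ratio of 3.58 ± 0.34 (adjusted p = 0.000729) that became 2.34 with 32 units added. JUN, the main partner of FOS, had 10.08, 9.90 and 9.85 in sham and 13.13, 13.69 and 13.41 after pulses, 11.1-fold higher (log2 ratio 3.47 ± 0.16, adjusted p = 1.02e-06). It was bright in sham already, and all 4 of its probe sets rose, by 2.59 to 3.61. JUND, of the same family as JUN, had 11.82, 11.79 and 11.60 in sham and 12.63, 13.17 and 13.33 after pulses, 2.48-fold higher (1.31 ± 0.19, adjusted p = 0.031). Its other 3 probe sets ran from -0.22 to 1.25 and were not called, and the call stood without nsEP replicate 1 but with no other array left out.

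ATF3, a CREB family factor that JUN can pair with and that many stresses induce, had 8.31, 8.11 and 8.04 in sham and 10.45, 10.82 and 10.09 after pulses, 4.93-fold higher (2.30 ± 0.21, adjusted p = 0.000592). Its other 2 probe sets had 1.12 and 1.62 and were not called. In all, 5 of 14 measured AP-1 and ATF genes were called higher and none lower. The list median was 0.76 against -0.02 over all genes. In 8 of the 14, all pulsed arrays lay above all sham arrays, where 4.56% of all genes did and 5.41% lay the other way round. The members that were not called included JUNB, another JUN family member, at 0.59 ± 0.36, FOSL1 at 0.47 ± 0.66 and FOSL2 at -0.32 ± 0.27. MAFF, a small MAF factor that pairs with AP-1 proteins, had 1.01 ± 0.25 and was not called (adjusted p = 0.281), and 7 of the 14 had an unadjusted p under 0.05.

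**Figure D2:**
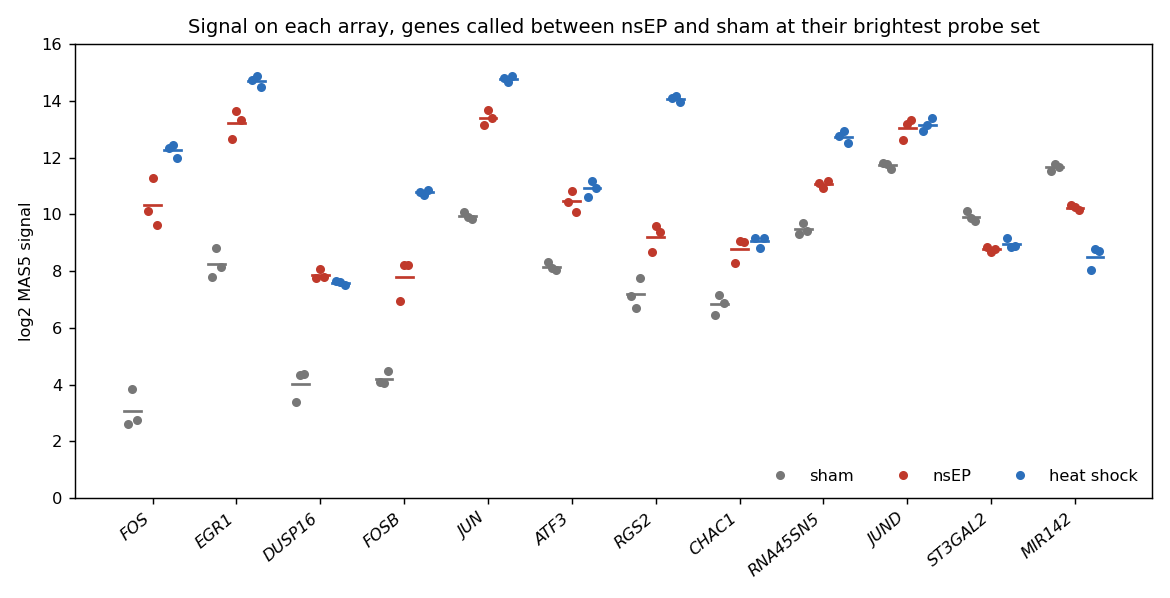
Log2 MAS5 signal on each array for the 12 genes called at their brightest probe set, in order of their ratio; points are arrays and lines are group means for sham, nsEP and heat shock. FOS goes from a mean of 3.07 in sham to 10.34 after nsEP, and MIR142 and ST3GAL2 are lower after nsEP.

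EGR1, a zinc finger factor read out within minutes of ERK signalling, had 7.79, 8.83 and 8.16 in sham and 12.67, 13.63 and 13.31 after pulses. All pulsed arrays were far above all sham arrays, and the ratio was 4.94 ± 0.27, or 30.7-fold (adjusted p = 3.25e-06). Its other 2 probe sets rose by 4.35 and 5.21. EGR3, which T cells use to hold back activation, had 6.43, 6.30 and 6.75 in sham and 9.05, 9.62 and 7.59 after pulses, apart in every array but not called (2.26 ± 0.40, adjusted p = 0.0828). EGR4 depended on the probe set. It had 0.21 ± 0.33 at the brightest (adjusted p = 0.955) and 4.47 ± 0.61 at a dim one, with 2.89, 0.93 and 2.41 in sham and 5.97, 6.78 and 6.89 after pulses (adjusted p = 0.0184). With 32 units added that value was 1.78 and was no longer called (adjusted p = 0.0658). The orphan receptors that often accompany EGR genes were not called, at 0.42 ± 0.31 for NR4A1, 0.87 ± 0.85 for NR4A2 and -0.98 ± 0.74 for NR4A3. Of the 8 EGR, NR4A and NAB genes read here EGR1 was called at the brightest probe set, and the list median was 0.65. EGR2 was not analysed here.

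The promoters of the called genes were read for letters that known factors bind. RefSeq promoter windows, 250 bases before to 50 after the start on GRCh38.p14, matched 18 of the 24 genes called at any probe set, and both strands were searched. TGACGTNA, a CRE with 1 open base, stood in 6 of the 18 (EGR1, EGR4, FOSB, JUND, NDUFA10 and PPP1R15A) and in 3.013% of 35116 promoters. The full CRE, TGACGTCA, a subset of these, stood in JUND, NDUFA10 and PPP1R15A and in 1.848% of promoters. A CArG box stood in EGR1 alone, with 2 matches, and in 1.293% of promoters. The ATF4 composite site TGATGNAA stood in ATF3 and CHAC1 and in 3.617% of promoters, and the heat shock element in none of the 18 and in 0.490%. The SP1 site GGGGCGGGG, a letter pattern of many promoters, stood in JUND, NDUFA10, RGS2 and SLC30A1 and in 15.677% of promoters. AP-1 letters TGANTCA stood in GABPB1 (7.709% of promoters), the EGR site GCGGGGGCG in KLF6 (5.072%), and CCGGAAGT and GCGTGGGCG in none of the 18 (4.138% and 0.795%). A match is a run of letters and not a site shown to be bound, and no test was made of these counts. Sites outside the window or spelled otherwise were missed. FOS was among the 18 and had no match, which does not show that it lacks such sites. The windows of 4 genes are shown because they carry the CRE, CArG and ATF4 letters, which are in capitals.

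EGR1 (chr5:138465229-138465528, plus strand; capitals mark the CRE form and both CArG boxes): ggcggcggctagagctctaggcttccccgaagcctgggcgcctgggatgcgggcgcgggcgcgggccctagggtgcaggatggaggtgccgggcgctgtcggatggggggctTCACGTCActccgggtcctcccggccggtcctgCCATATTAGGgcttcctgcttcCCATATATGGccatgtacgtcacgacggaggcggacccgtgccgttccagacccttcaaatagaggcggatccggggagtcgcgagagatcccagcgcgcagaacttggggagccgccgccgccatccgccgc

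FOSB (chr19:45467746-45468045, plus strand; capitals mark the CRE form): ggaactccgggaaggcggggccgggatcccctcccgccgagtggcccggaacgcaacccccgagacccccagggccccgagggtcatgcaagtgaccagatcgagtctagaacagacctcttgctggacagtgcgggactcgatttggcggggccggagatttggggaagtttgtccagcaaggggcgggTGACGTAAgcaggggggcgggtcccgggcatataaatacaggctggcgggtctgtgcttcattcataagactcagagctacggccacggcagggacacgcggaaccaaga

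PPP1R15A (chr19:48872171-48872470, plus strand; capitals mark the CRE): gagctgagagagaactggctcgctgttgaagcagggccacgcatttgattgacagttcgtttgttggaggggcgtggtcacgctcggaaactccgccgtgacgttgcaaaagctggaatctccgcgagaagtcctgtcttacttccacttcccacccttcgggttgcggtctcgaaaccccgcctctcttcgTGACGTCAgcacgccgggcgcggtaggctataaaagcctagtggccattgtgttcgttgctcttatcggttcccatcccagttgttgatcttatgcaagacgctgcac

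CHAC1 (chr15:40953221-40953520, plus strand; capitals mark the ATF4 composite site, read on the other strand): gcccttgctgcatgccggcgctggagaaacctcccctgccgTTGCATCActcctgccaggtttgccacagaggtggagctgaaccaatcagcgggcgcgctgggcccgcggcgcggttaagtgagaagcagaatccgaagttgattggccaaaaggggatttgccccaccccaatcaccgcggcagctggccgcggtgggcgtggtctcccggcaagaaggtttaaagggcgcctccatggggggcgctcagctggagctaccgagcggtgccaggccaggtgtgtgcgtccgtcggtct

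In EGR1 the CArG boxes end 96 and 74 bases before the start and the CRE form 131 bases before it. In FOSB the CRE form ends 53 bases before the start, and in PPP1R15A the CRE ends 51 bases before it. The CHAC1 site lies farther off, ending 202 bases before the start.

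Among genes that end MAP kinase signals, DUSP16, a phosphatase of JNK and p38, went from 3.38, 4.34 and 4.39 in sham to 7.74, 8.06 and 7.80 after pulses. The pulsed arrays were tight and well above sham, with a ratio of 3.83 ± 0.37 (adjusted p = 0.000972) that was 2.44 with 32 units added. Its other 3 probe sets had 1.20, 1.35 and 1.62 and were not called. The called set was the brightest over the 9 arrays through its pulsed and heat shocked arrays. In sham its mean was 4.03, under the 5.59 of the set with 1.20 (adjusted p = 0.516). DUSP10, which acts on the same kinases, rose at 1 probe set, from 7.14, 7.51 and 6.75 to 8.82, 9.40 and 8.64 (1.82 ± 0.27, adjusted p = 0.031), and had 1.55 ± 0.28 at the brightest (adjusted p = 0.0904). DUSP1, the most general of these phosphatases, had 9.64, 10.07 and 9.65 in sham and 10.61, 11.75 and 10.76 after pulses (1.25 ± 0.25, adjusted p = 0.17). The ERK phosphatases had 0.38 ± 0.29 for DUSP5, 0.33 ± 0.34 for DUSP6, -0.52 ± 0.18 for DUSP7 and -1.10 ± 0.68 for DUSP4, none called. Of 20 phosphatases and inhibitors DUSP16 alone was called at its brightest probe set, and the list median was 0.35. RGS2, which shortens signals of Gq coupled receptors, rose 4.05-fold, from 7.11, 6.70 and 7.77 to 8.67, 9.59 and 9.38 (2.02 ± 0.27, adjusted p = 0.0184), and was the only one of 7 RGS genes called. The RGS2 call ended without sham replicate 1 or 2, or nsEP replicate 2 or 3, and the DUSP10 call without sham replicate 1 or 3, or nsEP replicate 1 or 2. Of 19 genes of the MAP kinase cascade itself none was called, where 0.0506% of all genes were called higher and 0.0101% lower. Their ratios ran from -0.32 to 0.36, and 0 had an unadjusted p under 0.05, where 5.4% of all genes did. The list holds kinases and other members such as HRAS, ELK1 and CREB1. Kinase activity was not measured by the arrays.

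CHAC1, an enzyme that breaks down glutathione and a target of ATF4, had 6.46, 7.17 and 6.88 in sham and 8.27, 9.06 and 9.04 after pulses, 3.86-fold higher (1.95 ± 0.27, adjusted p = 0.0214). PPP1R15A (GADD34), which brings the phosphatase back to eIF2 and so lets translation resume, rose at 1 of its 2 probe sets, from 6.62, 6.52 and 5.66 to 8.23, 8.91 and 8.55 (2.30 ± 0.30, adjusted p = 0.0131). At its brightest probe set the value was 1.44 ± 0.26 (adjusted p = 0.0958). SLC7A11, the cystine transporter, had 9.88, 8.84 and 9.69 in sham and 10.73, 11.22 and 11.06 after pulses (1.53 ± 0.34, adjusted p = 0.216), and SESN2, a stress inhibitor of mTORC1, 7.64, 7.51 and 7.97 against 8.55, 9.51 and 9.44 (1.46 ± 0.30, adjusted p = 0.173). Neither was called, although their groups did not overlap. Of 25 genes of the integrated stress response CHAC1 was the 1 called at the brightest probe set, 21 had a ratio above 0, 11 had an unadjusted p under 0.05, and in 12 all pulsed arrays lay above all sham arrays, where 4.56% of all genes did. The list median was 0.45 after pulses. The CHAC1 call ended without sham replicate 1 or 3, or nsEP replicate 2 or 3, and the PPP1R15A call without nsEP replicate 2. The related chaperone programme of the endoplasmic reticulum was flatter, with 0 of 18 genes called (1 at an unadjusted p under 0.05) and a median of 0.09.

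RNA45SN5, the precursor of 18S, 5.8S and 28S ribosomal RNA, had 9.30, 9.69 and 9.41 in sham and 11.11, 10.93 and 11.17 after pulses. The pulsed arrays were close together and 3.03-fold higher (1.60 ± 0.16, adjusted p = 0.00117), and a second probe set had 1.03 ± 0.17 (adjusted p = 0.0554). None of the other 18 genes of ribosome biogenesis was called, where 0.0506% of all genes were called higher and 0.0101% lower. The list of 19 had a median of -0.05. Control probe sets for mature rRNA moved unevenly: the 5′ set of 28S rose by 1.70 ± 0.15 (adjusted p = 0.000359), the middle set had 0.74 ± 0.14 (adjusted p = 0.141), the 3′ set -0.51 ± 0.40, and the 3 sets of 18S had -0.34 to 0.14. The RNA45SN5 probe sets were not shown to tell the precursor from mature rRNA, and the part of rRNA carried into the labelled RNA was not tested.

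Few falls were called, which does not show that few transcripts fell. All pulsed arrays lay below all sham arrays in 5.41% of genes, and above them in 4.56%. The MIR142 probe set reads the long transcript that holds the blood cell microRNA miR-142. It had 11.53, 11.78 and 11.65 in sham and 10.32, 10.25 and 10.15 after pulses. The groups were narrow and 1.41 apart on the log2 scale (ratio -1.41, SE 0.19, adjusted p = 0.0203), and a second probe set had -1.21 ± 0.49 (adjusted p = 0.637). The call ended when any 1 of the 6 arrays was left out. The array does not measure the mature microRNAs, which RefSeq places on the minus strand of GRCh38.p14 at chr17:58331245-58331267 (3p) and chr17:58331283-58331303 (5p). They are shown to name the product of the transcript, with the seed, bases 2 to 8, in capitals.

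hsa-miR-142-3p: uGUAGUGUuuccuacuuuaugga

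hsa-miR-142-5p: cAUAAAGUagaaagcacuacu

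ST3GAL2, which adds sialic acid to gangliosides and glycoproteins, fell at its brightest probe set, from 10.13, 9.87 and 9.76 to 8.86, 8.69 and 8.78 (ratio -1.14, SE 0.17, adjusted p = 0.0375). Its other 4 probe sets ran from -0.25 to 0.50, and the call ended when any 1 array was left out. Another 2 probe sets that are not listed with a gene fell, with ratios of -1.27 and -3.46, the latter from 5.85, 5.89 and 6.32 to 2.63, 2.26 and 2.79 and no longer called with 32 units added (-1.35, adjusted p = 0.108). Of the 8 well expressed genes nearest to a called fall, 5 were read by x_at probe sets. The nearest was NACA4P, a pseudogene, at -1.43 ± 0.23 (adjusted p = 0.0557). The others were SSBP3-AS1 at -1.27 (0.0709), ANKRD13D at -1.17 (0.1), ADAM33 at -2.02 (0.168), LOC101927166 at -1.74 (0.186), NOMO3 at -1.31 (0.201), MZT2B at -0.90 (0.218) and NAPEPLD at -0.89 (0.227), none of them called.

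For 12 of the 24 genes called at any probe set the brightest probe set was not called. DUSP10, PPP1R15A and KLF6, a zinc finger factor of the early response, had ratios of 1.55, 1.44 and 1.04 there, in the same direction. SLC30A1, the zinc exporter of the plasma membrane, had 0.82 ± 0.35 at the brightest and rose by 1.97 ± 0.28 at another, from 7.86, 7.91 and 7.09 to 9.39, 10.13 and 9.27 (adjusted p = 0.0285). The other 8 had little or no difference at the brightest probe set, from -0.29 for EDRF1 to 0.35 for GABPB1. NDUFA10, a subunit of respiratory complex I, had 7.08, 7.19 and 7.08 in sham and 8.96, 9.25 and 10.00 after pulses at 1 probe set (2.29 ± 0.26, adjusted p = 0.00392), while its 4 others ran from -1.81 to 0.10. TERF2, a protein of telomere ends, had 7.24, 7.38 and 6.96 against 8.84, 8.84 and 9.33 at 1 of its 5 probe sets (1.81 ± 0.24, adjusted p = 0.0131) and -0.10 at the brightest. CMAHP, the human remnant of a sialic acid hydroxylase gene, had 7.07, 7.43 and 7.61 against 9.32, 9.98 and 9.69 (2.29 ± 0.28, adjusted p = 0.00817) and 0.20 at the brightest. These called probe sets were dimmer than the set that stands for the gene, and what part of each transcript they read was not examined here. The same held for SRSF11, a splicing factor (2.65 against -0.04), BCL10, the adaptor that joins antigen receptors to NF-kB (1.66 against 0.01), EDRF1 (2.40 against -0.29), GABPB1, a partner of the ETS factor GABP (1.36 against 0.35) and EGR4. The calls on SRSF11, BCL10, GABPB1 and EDRF1 each stood in only 1 of the 6 fits that left out an array, that on SLC30A1 in 1, those on TERF2 and DUSP10 in 2, on EGR4 in 3, on CMAHP in 4, on PPP1R15A in 5 and on NDUFA10 in 6. The KLF6 call (1.47 ± 0.22, adjusted p = 0.031) stood in 0 of the 6, with an adjusted p of up to 0.215. With 32 units added SRSF11 and EDRF1 were not called (adjusted p = 0.0658 and 0.0518). One called probe set is listed with several symbols and so names no gene: it had 8.12, 7.76 and 8.50 in sham and 10.07, 9.57 and 10.31 after pulses (1.85 ± 0.22, adjusted p = 0.00565), and the call stood in all 6 fits.

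**Figure D3:**
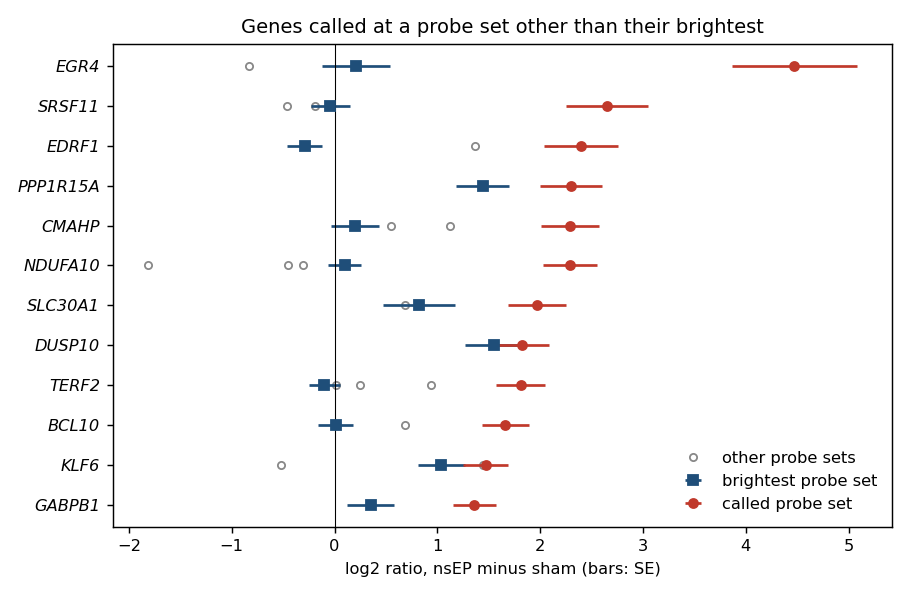
Log2 ratio of nsEP to sham at the called probe set, the brightest probe set and the other probe sets of the 12 genes called away from their brightest probe set; bars are SE of the fit. DUSP10, PPP1R15A and KLF6 are above 1 at both, while TERF2, NDUFA10, BCL10 and SRSF11 lie within 0.10 of 0 at the brightest.

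Heat shocked arrays show which of these changes were also seen under another stress at the same hour. Both contrasts share the sham arrays, so the pulsed and heat shocked arrays were compared directly. The 32 probe sets were chosen by their nsEP values against sham, and the same nsEP arrays enter this comparison. The choice therefore favours nsEP above heat shock where probe sets were called higher, and the reverse where called lower. Between these exposures 2.31% of probe sets passed as higher after pulses and 2.65% as lower. Of the 32 probe sets called against sham 7 were higher after pulses than after heat shock, 15 lower and 10 not called. The early factors were lower after pulses than after heat shock: FOS by 1.93 (adjusted p = 0.015), FOSB by 2.99 (0.000344), JUN by 1.36 (0.000523) and EGR1 by 1.49 (0.00733) on the log2 scale at the brightest probe set. RGS2 had 14.08, 14.16 and 13.94 after heat shock and lay 4.85 lower after pulses (adjusted p = 1.42e-06), and RNA45SN5 lay 1.67 lower (0.000102). In these the pulses went part of the way that heat shock went.

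The 10 probe sets not called between the exposures included those of DUSP16, ATF3, DUSP10, CHAC1 and JUND. There the difference of nsEP from heat shock was 0.28 for DUSP16 (adjusted p = 0.746), -0.46 for ATF3 (0.263), -0.14 for DUSP10 (0.833), -0.27 for CHAC1 (0.649) and -0.11 for JUND (0.812), and with 3 arrays a group these do not show the levels to be equal. At its brightest probe set DUSP10 had -0.97 (0.0679). Other feedback and ATF4 linked genes did differ: DUSP1 lay 2.13 lower after pulses (0.000503), PPP1R15A 1.53 lower at its called probe set (0.0104) and 1.18 lower at the brightest (0.0209), and SLC7A11 1.80 higher (0.00831). Another set was higher after pulses than after heat shock. SLC30A1 had 7.49, 7.66 and 7.43 after heat shock and was 2.07 higher after pulses (adjusted p = 0.00121), and CMAHP was 1.99 higher (0.00143), EDRF1 1.74 (0.0158), NDUFA10 1.35 (0.00949), TERF2 1.24 (0.00913) and GABPB1 1.06 (0.0104). All 6 were called at a dimmer probe set of their gene. MIR142 had 8.04, 8.78 and 8.71 after heat shock, so that it was lower than sham in both groups and 1.73 higher after pulses than after heat shock (adjusted p = 0.000329). ST3GAL2 had -0.18 between the exposures, which was not called (adjusted p = 0.621).

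**Figure D4:**
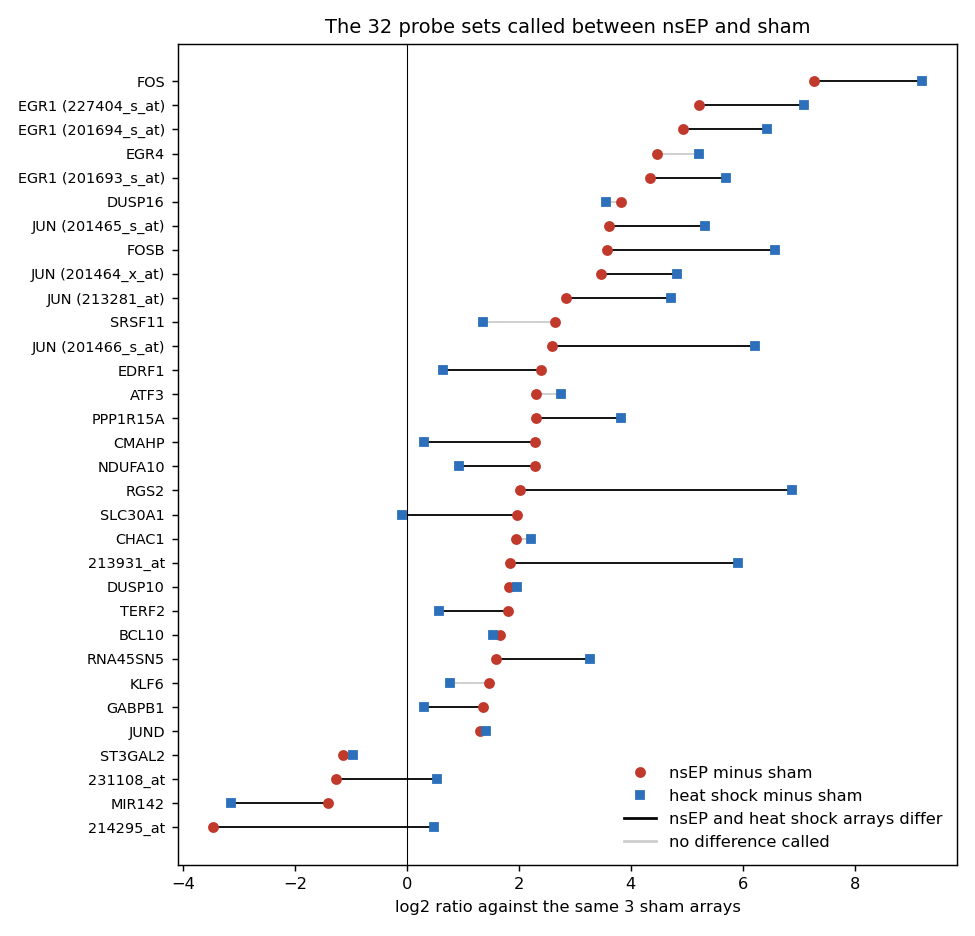
Log2 ratios against the same 3 sham arrays after nsEP and after heat shock for the 32 probe sets called between nsEP and sham, joined by a black line where the nsEP and heat shock arrays differed at an adjusted p of 0.05 and by a grey line where not. FOS, FOSB, JUN, EGR1 and RGS2 lie farther right after heat shock, while SLC30A1, CMAHP, EDRF1, NDUFA10, TERF2 and GABPB1 lie farther right after nsEP.

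The chaperone response, which marks heat shock, was weak after pulses. HSPA6, the strictly inducible HSP70 gene, had 5.82, 6.34 and 6.44 in sham and 6.74 to 8.05 after pulses (1.39 ± 0.30, adjusted p = 0.208) and was 7.37 lower than after heat shock (adjusted p = 1.14e-07). DNAJB1, the HSP40 partner, had 0.40 ± 0.14 (adjusted p = 0.585) and was 2.74 lower than after heat shock (9.88e-07). None of 20 chaperone genes was called against sham (2 at an unadjusted p under 0.05), and the median was 0.12 after pulses and 1.13 after heat shock. The GADD45 sensors, early genes of many stresses, had 0.59 for GADD45A, 0.48 for GADD45B and 0.42 for GADD45G after pulses, none called, and 1.51, 5.46 and 5.59 after heat shock.

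CD69, an early surface marker of T cell activation, was near a call. It had 8.65, 9.86 and 9.01 in sham and 11.21, 11.71 and 11.00 after pulses, apart in all arrays (2.13 ± 0.35, adjusted p = 0.0654). It had a ratio of -0.30 to sham after heat shock and was 2.43 higher after pulses than after heat shock (adjusted p = 0.0017). ICOS, a costimulatory receptor, was dim, with 3.25, 2.70 and 3.66 in sham and 6.33, 7.60 and 5.84 after pulses (3.39 ± 0.71, adjusted p = 0.188), and was 3.40 higher than after heat shock (0.0157). IL2 had 1.28 ± 0.66 and IL2RA -0.95 ± 0.72. None of 17 genes of T cell activation was called against sham (2 at an unadjusted p under 0.05), and the list median was 0.16. Calcium entry, phosphoinositide and calcineurin genes, the machinery upstream of these, had 0 of 29 called (1 at an unadjusted p under 0.05) and a median of -0.04.

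Other genes nearest to a called rise, with a mean over the 9 arrays at or above the median, were EPB41L4A-AS1, an antisense transcript (0.83 ± 0.14, adjusted p = 0.0654), KLF4 (2.26 ± 0.39, 0.0716), CREB5, a CRE binding factor (1.71 ± 0.30, 0.0802), and EVI2A (1.22 ± 0.22, 0.0994). The sham means of KLF4 (5.74) and CREB5 (6.20) lay under that median, 6.33, so they met the limit only through their other arrays. KLF4, an early zinc finger factor, had 5.44, 5.79 and 5.99 in sham and 7.29, 9.08 and 7.61 after pulses, so its pulsed arrays were the more scattered. Of 24 other immediate early genes none was called at the brightest probe set but 10 had an unadjusted p under 0.05, 19 had a ratio above 0 and the median was 0.43, with 0.95 ± 0.22 for BTG1 and 0.92 ± 0.21 for PHLDA1. MYC had 0.05 ± 0.19.

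Most of what was listed was not called. Of 30 gene lists 23 had no member called at the brightest probe set. Over all genes 0.0506% were called higher and 0.0101% lower, so lists of this size would seldom hold a called gene. The absence of calls therefore does not show that the members were unchanged. Of the 434 entries of these lists 37 had an unadjusted p under 0.05, where 5.4% of all genes did. Cholesterol genes had a median of 0.41 over 15 genes, 5 of them at an unadjusted p under 0.05, with 0.54 ± 0.18 for IDI1 and 0.45 ± 0.18 for INSIG1, and NRF2 and redox genes 0.19 over 23. Medians were 0.13 for NF-kB genes, 0.11 for membrane repair, ESCRT and scrambling genes, 0.10 for actin, SRF and YAP targets, 0.07 for hypoxia and glycolysis, 0.06 for p53 targets and 0.02 for apoptosis regulators, with 0 called in each. PMAIP1 (NOXA), a trigger of mitochondrial cell death, had 11.83, 11.07 and 11.95 in sham and 12.44, 12.53 and 12.38 after pulses (0.84 ± 0.21, adjusted p = 0.307). Ribosomal protein genes moved within 0.13 to 0.30, with a median of 0.18, and the genes of G1 and S phase and of G2 and M phase had medians of -0.05 and -0.08. HPRT1, the reference gene of the study's PCR, had 0.03 ± 0.15. Of the genes of proteins on its bead panels, 12 were measured apart from JUN. None of these transcripts was called (0 at an unadjusted p under 0.05), and their ratios ran from -0.33 to 0.34. Protein levels were not measured by the arrays. The paper reports that several MAP kinase panel proteins rose significantly in pulsed Jurkat cells at the hour of RNA harvest. It reports significant rises in proteins of both panels at later hours.

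**Figure D5:**
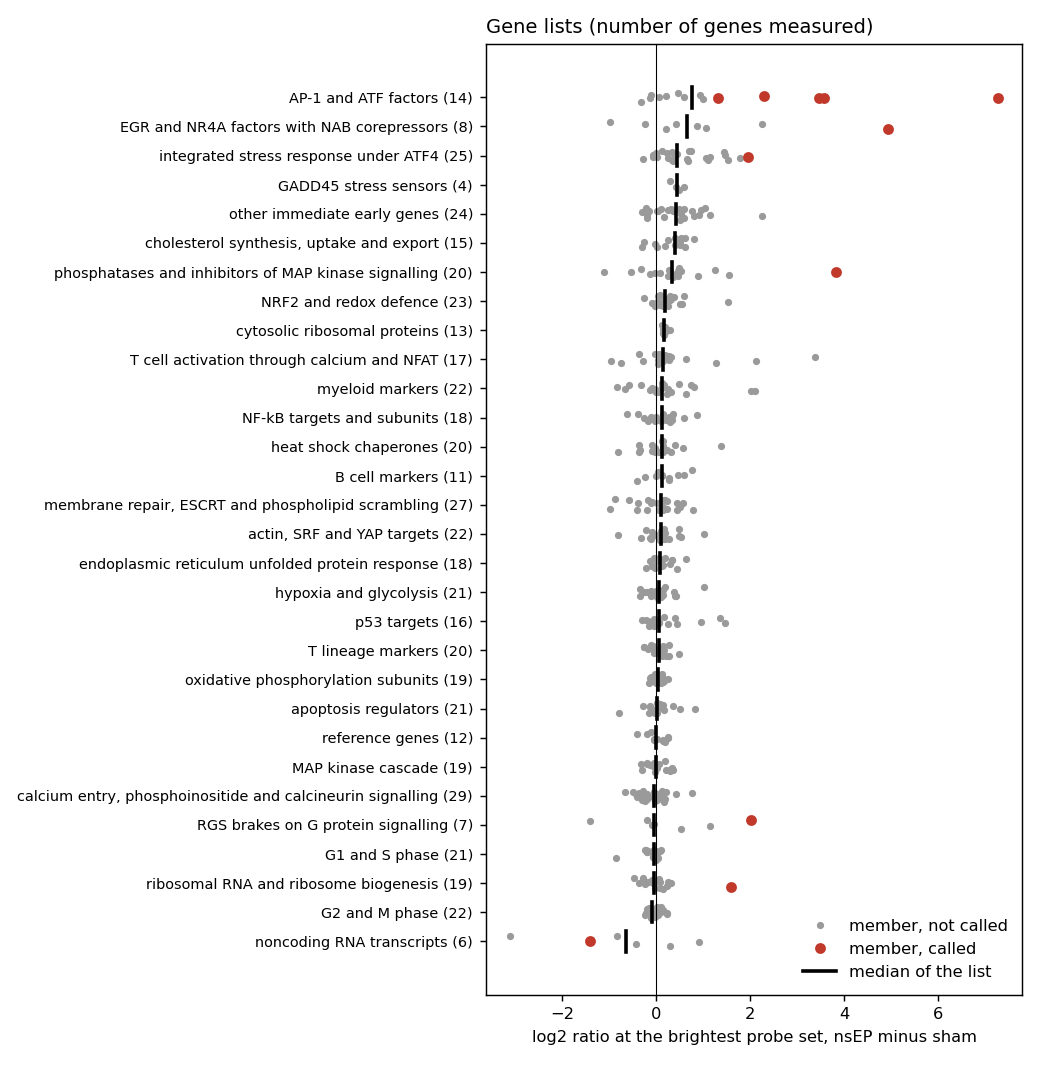
Log2 ratio of nsEP to sham at the brightest probe set for the members of 30 gene lists, 1 point per gene, with the list median as a bar and called genes in red. Called genes stand in 7 lists, the AP-1 list has the highest median at 0.76, and lists such as G2 and M phase lie close to 0.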

How the data were processed

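RNA of 9 Jurkat samples was hybridised to Affymetrix HG-U133 Plus 2.0 arrays. The deposited values are log2 signals that the authors made with MAS5, which combines the signals of matched and mismatched probes and brings every array to the same trimmed mean, 500.1 here. Detection calls were not used here. Of 54675 probe sets, 62 controls were set aside. Of the 54613 left, 41091 had 1 gene symbol in the platform's table, 1801 several and 11721 none listed, and the gene identifiers of 54 were not in RefSeq. A gene was read at the probe set with the highest mean signal over the 9 arrays. All 9 arrays entered 1 fit with limma 3.58.1 (R 4.3.3), 1 mean per group, a variance trend and Benjamini-Hochberg adjustment over the 54613, with calls at an adjusted p under 0.05. The precision is limited by the number of arrays, and the smallest p of an exact permutation test of 3 against 3 is 0.1.

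The text names every gene with a called probe set, up to 4 members of a list with the smallest p, the 8 well expressed genes nearest to a call in each direction, and genes measured by PCR or beads in the study. A few further list members are given as values. The members, the 30 lists and these rules were chosen with earlier results of these data known. Lists are described by counts and medians, with no test. Alternatives were the 6 arrays only, the replicate number as a block, no variance trend, array weights, quantile and median scaling, poly-A spike-in scaling, 32 signal units added, dim probe sets left out, 1 probe set per gene, the methods' t-test and leaving out each array. Python 3.11.15 with pandas 2.3.3, numpy 2.4.6 and matplotlib 3.10.9 made the tables and figures.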

Additional observations from a re-analysis of the deposited data

Results flagged for a closer look

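A control probe set outside the main comparison differed between the groups. The 5′ set for 28S ribosomal RNA had means of 12.54 in sham, 14.24 after pulses and 15.51 after heat shock, a rise of 1.70 on the log2 scale after pulses (limma adjusted p = 0.000359) that was 1.64 to 1.75 when 1 array was left out.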

How the results depend on the processing

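Counts are higher and lower probe sets, with 28 and 4 as reported. They were 13 and 1 (14 in all) with 6 arrays, 6 and 1 (7) with no variance trend, 12 and 0 (12) with spike-in scaling, 42 and 10 (52) with array weights and 54 and 9 (63) with dim probe sets left out. At the brightest probe set, in place of 10 and 2 genes, they were 6 and 1, 4 and 0, 5 and 0, 13 and 4, and 18 and 4 in the same order. Of the list members, 11 were called, against 7 with 6 arrays, 4 with no variance trend and 5 with spike-in scaling. The methods' t-test gave 0 and 0 (0 genes, 0 list members) after Benjamini-Hochberg, although 3325 passed 0.05 before adjustment, and 215 and 206 at its thresholds of p 0.05 and a log2 ratio of 2. Of the 32 probe sets, 22 differed from heat shock, against 12 with spike-in scaling. Leaving out 1 array gave 14 to 30 higher and 0 to 6 lower probe sets, 15 to 36 in all, 7 to 15 higher and 0 to 3 lower genes and 7 to 14 list members. Same-numbered nsEP and sham arrays had correlations of deviations of 0.033, 0.017 and 0.027 over all probe sets. Among probe sets at or above the median signal these were -0.047, 0.171 and -0.007. Pairs with other numbers ran from -0.259 to 0.235 there. With the replicate block 27 were higher and 4 lower, and 27 of the 32 were called. The 32 probe sets kept their direction under every alternative in which they were fitted, which left out 2 of them with the dim probe sets and 20 with 1 probe set per gene. Only quantile, median and spike-in scaling could have reversed a direction. In all 32 the nsEP and sham arrays do not overlap, so under the other alternatives the direction was fixed in advance. At an unadjusted p under 0.05 limma gave 3821 probe sets. In the dimmest quartile the median within-group SD of 1.09 limits what 3 arrays can show.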
